A study of Mus musculus with 10 samples.

Results

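The 10 genes described here carry out antigen presentation by major histocompatibility complex (MHC) class I: the heavy chains H2-K1 and H2-D1, the light chain B2m, the peptide transporter subunits Tap1 and Tap2, the loading factor Tapbp (tapasin), the immunoproteasome subunits Psmb8, Psmb9 and Psmb10, and the transactivator Nlrc5. They were taken by symbol from a table of 37947 gene symbols and 92251 transcripts, and each gene was followed at its transcript of highest mean over all 10 libraries. The libraries came from the gastrocnemius, a hind limb muscle, of male C57BL/6 mice at 6 months (young, 5 libraries) and 24 months (aged, 5 libraries), with no other treatment. Messenger RNA was sequenced, and levels were given as log2 FPKM (sequenced fragments scaled to transcript length and to library depth), with an FPKM under 1 listed as 0. Of the 10 genes, 9 reached a mean FPKM of 1 over the libraries and were tested, and Nlrc5 did not.

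Class I molecules sit on the surface of nearly all nucleated cells and show peptides of the cell's own proteins to CD8+ T cells. Proteasomes cut the peptides, the TAP transporter carries them into the endoplasmic reticulum, tapasin holds TAP to empty class I molecules, and a loaded heavy chain with B2m moves to the surface. Interferons raise the genes of this route together and exchange the catalytic subunits of the proteasome for immunosubunits, and NLRC5 acts at class I promoters. Resting muscle fibers are known for low class I levels, while leukocytes and endothelial cells in the same tissue carry more. In whole muscle, more cells of a type and more RNA per cell cannot be told apart.

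The promoters of some of the genes hold short motifs of interferon, NF-kappa B and class I regulation. The regions of B2m and H2-K1 are shown because both genes were high in the same aged libraries. Sequences came from RefSeq (build GRCm38.p6), which gave windows from 250 bases before to 50 bases after the start site for 8 of the 10 members, all but Tap2 and Nlrc5. Printed 5′ to 3′ are the 250 bases before the start site of B2m (chr2:122147437-122147686, plus strand) and H2-K1 (chr17:34000348-34000597, minus strand). The span that RefSeq gives H2-K1 reaches further upstream than the start site used, so other annotated starts may lie in or before its region. Capitals mark matches on either strand to interferon regulatory factor cores (GAAANNGAA and GAANNGAAA), a kappa B core (GGGATTCC), the CCAAT box and the core TGACG of the cyclic AMP response element.
B2m: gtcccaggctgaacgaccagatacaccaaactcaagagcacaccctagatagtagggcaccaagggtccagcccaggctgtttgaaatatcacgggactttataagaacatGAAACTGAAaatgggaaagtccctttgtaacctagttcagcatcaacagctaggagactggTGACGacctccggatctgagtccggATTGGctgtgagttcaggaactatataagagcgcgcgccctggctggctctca
H2-K1: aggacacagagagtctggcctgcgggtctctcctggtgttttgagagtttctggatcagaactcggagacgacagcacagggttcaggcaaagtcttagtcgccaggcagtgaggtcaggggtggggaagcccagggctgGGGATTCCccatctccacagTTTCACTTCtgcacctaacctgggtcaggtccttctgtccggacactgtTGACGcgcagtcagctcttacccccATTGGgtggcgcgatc
In H2-K1, counted from the first of its 2 RefSeq start sites, the kappa B core began at position -110, the interferon regulatory factor core at -90, TGACG at -41 and the CCAAT box at -16, with a further CCAAT box at 8, past the printed bases. H2-D1 held the same order of motifs, at -170, -150, -101 and -76, and its further CCAAT box at -53. B2m held the other spacing of the interferon regulatory factor core at -139, with TGACG at -78 and a CCAAT box at -53. A kappa B core stood in 2 of the 8 members with a window, H2-K1 and H2-D1, and in 1.06% of all 32851 RefSeq mouse windows of that length. TGACG stood in 5 of 8 members against 20.8% of windows, and the CCAAT box in 6 of 8 against 37.4%. GAAANNGAA stood in 1 of 8 members against 8.56% of windows, and GAANNGAAA in 2 of 8 against 7.52%. The interferon-gamma activated site TTCNNNGAA stood in 1 of 8, Psmb8, against 8.3%, and the GC box GGGCGG in 3 of 8 against 35.7%. The windows of Tap1 and Psmb9 overlap, and the matches of both genes are the same sites, counted for each gene. The kappa B core and the interferon regulatory factor core of H2-K1 were found only there and in H2-D1, a gene similar in sequence. The member counts are thus not counts of independent windows, and no enrichment over all windows was tested. These matches describe letters, and binding was not measured.

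The depth recovered from the steps of the FPKM values was 19886279 to 34554500 reads per library. Markers of muscle fibers (Acta1, Ckm, myosin heavy chains and others) were the most abundant of the marker lists and summed to 77000 to 92700 FPKM in young and 69500 to 79000 in aged libraries. Both libraries numbered 3 stood apart: they listed the fewest transcripts above 0, 35024 in young 3 and 29878 in aged 3, against 38855 to 43296 in the others. Among 652 genes with a transcript of 4000 bases or more, the median was -0.41 (log2) in young 3 against the other young libraries and -0.44 in aged 3 against the young mean, while for 927 genes of 1000 to 2000 bases it was 0.22 and 0.15. For 2072 genes under 1000 bases, the class of 7 of the 9 tested member rows, it was 0.24 in young 3 and -0.10 in aged 3. Aged 4 listed the most transcripts, 43296, and had a median of 0.41 against the young mean for the genes of 4000 bases or more and 0.04 for those under 1000 bases. The part of this length pattern in the members' values was not tested, and counts without these libraries are given with the results.

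Of the 10 genes 7 lie in the MHC on chromosome 17, Psmb10 and Nlrc5 on chromosome 8 and B2m on chromosome 2. Both class I heavy chains had a higher mean in aged muscle, and for H2-K1 no aged library reached down to the young range. H2-K1 (chromosome 17, 33996012 to 34000619) listed log2 FPKM of 5.51, 5.41, 5.57, 5.55 and 5.53 in young 1 to 5, and 5.89, 5.78, 7.08, 7.08 and 5.74 in aged 1 to 5. The young libraries lay close together, aged 3 and aged 4 were far above the rest, and the groups did not overlap. The mean was 5.51 ± 0.06 (SD, n = 5) in young and 6.31 ± 0.70 in aged, a difference of 0.80 (SE 0.30) or 1.74-fold, with p = 0.00794 by the two-sided exact permutation test, the smallest that 5 against 5 allows. The limma fit across all 38059 transcripts tested gave an unadjusted p of 0.0224 and an adjusted p of 1.0. With libraries paired by number (deviations correlated within all 5 numbers), the exact permutation p was 0.0625, the smallest that 5 pairs allow, so no gene could pass 0.05 in that test. H2-D1 (chromosome 17, 35263094 to 35267497), the other classical heavy chain of this strain, listed 5.50, 5.42, 5.77, 5.40 and 5.42 in young and 6.04, 5.63, 7.48, 6.71 and 5.91 in aged libraries. Aged 3 was highest and aged 2 lay inside the young range, below young 3. Its difference was 0.85 (SE 0.32), 1.80-fold, with an exact permutation p of 0.0159. Heavy chain genes and their class I paralogs are similar in sequence, so how reads were divided among them is uncertain.

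B2m (beta-2 microglobulin, chromosome 2, 122147687 to 122153082), the light chain that all class I heavy chains need at the surface, was the most abundant member per length. Young libraries listed log2 FPKM of 6.32, 6.37, 6.43, 6.54 and 6.40, and aged libraries 6.96, 6.71, 7.95, 7.94 and 6.45. The highest were again aged 3 and aged 4, and aged 5 lay within the young range. The difference was 0.79 (SE 0.30), 1.73-fold, with an exact permutation p of 0.0159, and of 0.0556 or 0.0635 after rescaling by the median of ratios or by quantiles. Coverage of B2m ran from 1399 to 2569 reads in the young group and from 1523 to 6781 in the aged group, the most of the rows used.

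**Figure D1:**
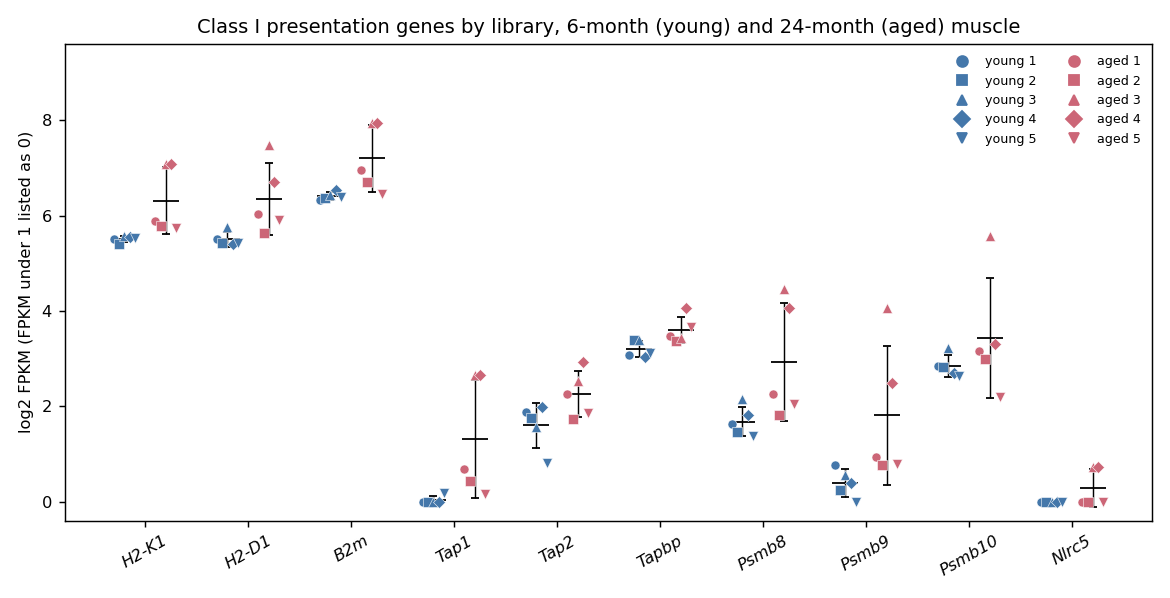
Log2 FPKM of the 10 genes (x axis) in each of 5 young (blue) and 5 aged (red) libraries, with marker shape giving the library number, horizontal bars the group mean and error bars the SD. Aged 3 (triangle) and aged 4 (diamond) lie highest for B2m, at 7.95 and 7.94, and for 8 further genes they are the highest 2 of the aged libraries; for Tapbp aged 3 is at 3.43, within the others.

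The peptide transporter genes were low in young muscle. Tap1 (chromosome 17, 34187556 to 34197225), a subunit of the transporter associated with antigen processing, passed the filter on low values only through the aged libraries, so its difference is given as a description. It was listed at 0 in young 1 to 4 and at 0.18 in young 5, and at 0.69, 0.43, 2.65, 2.66 and 0.15 in aged 1 to 5. Far above the rest were aged 3 and aged 4, and aged 5 lay inside the young range. The difference was 1.28 (SE 0.50), and it understates the difference for a gene whose young libraries were nearly all under an FPKM of 1. By length, this row matched the GENCODE transcript Tap1-203, which retains an intron, and it rested on at most 151 reads. A coding row of Tap1 (2614 bases) listed 0.02, 0, 0, 0 and 0 in young and 0.20, 0.22, 2.91, 2.45 and 0.30 in aged libraries. The difference was 1.21 for that row and 1.06 for the longer coding row of 2953 bases.

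Tap2 (chromosome 17, 34204479 to 34216321), the partner subunit of Tap1, listed 1.89, 1.75, 1.56, 1.98 and 0.81 in young and 2.26, 1.74, 2.53, 2.92 and 1.85 in aged libraries. The groups overlapped, with young 5 lowest and aged 4 highest. The difference was 0.66 (SE 0.29), with an exact permutation p of 0.0714. Its row, of 344 bases, had 12 to 35 reads in the young group and 25 to 69 in the aged group and matched a noncoding transcript by length. The longest of its 3 coding rows, of 3442 bases, gave a difference of 0.78, with aged 3 at 3.17 above aged 4 at 2.33. The short coding rows of 378 and 376 bases each gave 0.22, with aged 3 at 0 and 0.23 and aged 4 at 2.26 and 2.79.

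Tapbp (chromosome 17, 33919478 to 33929290), which encodes tapasin, differed least of the tested members in value. It listed 3.07, 3.38, 3.40, 3.04 and 3.12 in young and 3.47, 3.37, 3.43, 4.07 and 3.66 in aged libraries. Aged 4 was highest, aged 3 stayed near the young libraries, and aged 2 was within their range. The difference was 0.40 (SE 0.17), 1.32-fold, with an exact permutation p of 0.0238. Its other transcripts differed in sign: of 5 rows 3 were higher in aged, from -0.25 to 0.53, and the longest, Tapbp-001 of 2894 bases, gave the highest value. The row used is a short one of 614 bases that matched a transcript with a retained intron, while Tapbp-001 listed 2.65, 2.89, 2.86, 2.58 and 2.52 in young and 2.83, 2.79, 4.22, 3.29 and 3.01 in aged libraries, with aged 3 highest. Without aged 4 the exact permutation p of the row used was 0.0556, and for the mean over transcripts it was 0.571.

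Of the immunoproteasome subunits, Psmb9 had the largest difference in value of the tested members and Psmb10 the smallest but for Tapbp, and all 3 varied widely between aged libraries. Psmb8 (chromosome 17, 34198195 to 34201454), the immunosubunit with chymotrypsin-like activity, listed 1.62, 1.45, 2.15, 1.81 and 1.37 in young and 2.26, 1.82, 4.46, 4.06 and 2.05 in aged libraries. High values were those of aged 3 and aged 4, aged 1 was just above the young range and aged 2 and 5 were within it. The difference was 1.25 (SE 0.51), 2.38-fold, with an exact permutation p of 0.0317, and of 0.0556 to 0.119 when any 1 young library was left out.

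Psmb9 (chromosome 17, 34182030 to 34187330) lies head to head with Tap1, transcribed away from it. It listed 0.77, 0.25, 0.56, 0.38 and 0 in young and 0.94, 0.77, 4.07, 2.49 and 0.78 in aged libraries. Aged 3 was highest, at 12.8 times the young mean, aged 4 stood at 4.27 times, and aged 2 was level with young 1 as rounded. The difference was 1.42 (SE 0.59), 2.67-fold, with an exact permutation p of 0.0159, and it was 0.85 without aged 3. Its exact permutation p was 0.0635 to 0.103 without young 2, 3, 4 or 5. Few reads stood behind Psmb9, 39 to 69 where it was listed above 0 in young muscle and 47 to 722 in aged muscle.

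Psmb10 (chromosome 8, 105935728 to 105938392), the immunosubunit with trypsin-like activity, listed 2.84, 2.82, 3.23, 2.69 and 2.64 in young and 3.15, 3.00, 5.57, 3.30 and 2.19 in aged libraries. Only aged 3 was far from the rest, and aged 5 was the lowest library of all 10. The difference was 0.60 (SE 0.52), with an exact permutation p of 0.405, and it was 0.07 without aged 3 and 0.91 without aged 5 (exact permutation p = 0.0238). Nlrc5 (chromosome 8, 94434335 to 94527272), the class I transactivator, was listed at 0 in all 5 young libraries and in aged 1, 2 and 5. It was listed at 0.72 in aged 3 and 0.73 in aged 4, the same libraries in which most of the other members were highest, and it was too low for the fit.

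Each immunosubunit takes the place of a constitutive catalytic subunit: Psmb8 that of Psmb5, Psmb9 that of Psmb6, and Psmb10 that of Psmb7. The FPKM of Psmb8 was 2.58, 2.20, 2.28, 3.17 and 2.50% of that of Psmb5 in young 1 to 5, and 3.65, 2.68, 10.0, 16.7 and 2.68% in aged 1 to 5. The constitutive subunit thus remained the larger by far in every library, and aged 2 and aged 5 were within the young range. The log2 ratio was 1.08 higher in aged, with a two-sided exact permutation p of 0.0476. Psmb9 stood at 1.35, 0.794, 0.716, 1.05 and 0.824% of Psmb6 in young and 1.22, 1.08, 7.52, 4.59 and 1.09% in aged libraries, with the value of young 5 an upper bound since Psmb9 was listed at 0 there. The groups overlapped, and the log2 ratio differed by 1.24 (exact permutation p = 0.0556). Psmb10 was 2.22 to 3.27% of Psmb7 in young libraries and 3.08, 2.70, 26.5, 3.72 and 1.31% in aged 1 to 5, a log2 difference of 0.63 (exact permutation p = 0.579). In aged 3 Psmb7 itself was low on the row used, at 7.48 against 8.04 to 8.18 in young libraries, which enters this ratio. Psmb5 was slightly lower in aged 4 than in every young library, which enters the ratio of Psmb8 there.

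**Figure D2:**
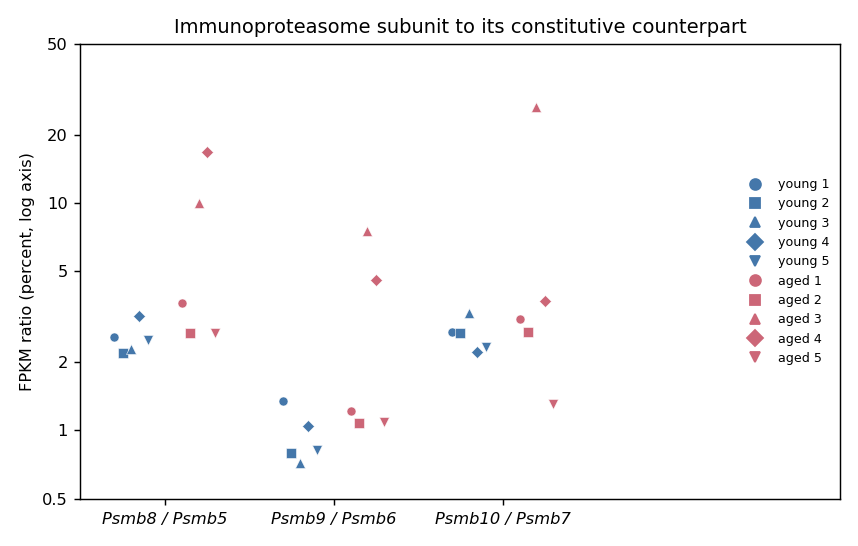
FPKM of each immunoproteasome subunit as a percent of its constitutive counterpart (y axis, log scale) for the 3 pairs (x axis), with young libraries in blue and aged in red and marker shape giving the library number. For Psmb8 over Psmb5 aged 3 and aged 4 lie at 10.0 and 16.7%, against at most 3.17% in young libraries.

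The constitutive counterparts differed by less than the immunosubunits in value: Psmb5 by 0.17 (exact permutation p = 0.476), Psmb6 by 0.18 (0.413) and Psmb7 by -0.03 (0.921). Of 12 proteasome core genes, the alpha and noncatalytic beta subunits and the assembly factor Pomp, 12 had a higher mean in aged and 0 an unadjusted limma p under 0.05, with a median of 0.29. Psmb4, the most abundant of them, was 7.15 in young and 7.43 in aged. Among the 4 proteasome activator genes 3 had a higher mean and 0 passed the unadjusted threshold. Psme1 and Psme2, which form the interferon-inducible cap of the proteasome, differed by 0.28 and 0.18 on the rows used, and Psme1 reached 6.54 in aged 3 against 4.93 to 5.40 in the other aged libraries. The row of Psme2 is a retained-intron one of 185 bases, and its longest coding row differed by 0.55, with aged 3 at 6.30 against 4.02 to 4.69 in the other aged libraries.

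Across the members, no adjusted limma p passed 0.05 (0 of 9, each rounding to 1.0), as for all but 3 of the 38059 transcripts tested (0.00788%). The unadjusted limma p was under 0.05 and the aged mean higher for 8 of 9 members, all but Psmb10, against 6.05% of 10161 genes taken at 1 transcript each. Of the 9 members 1, Tap1, and of the 10161 genes 288 had a young mean FPKM under 1 and so passed the filter only through the aged libraries. With a mean of at least 1 required in each age group, an alternative chosen after seeing the data, the count was 7 of 8 members against 5.37% of genes. No member was lower at that threshold, against 0.876% of genes. Leaving out aged 4 took the count from 8 to 0 of 9, with 4.98% of genes passing. It was 5 without aged 3, where 12.5% of genes passed, and 3 without both libraries numbered 3, where 13.3% passed. Leaving out young 2, young 4 or young 5 gave 5, 5 and 4, with 4.09, 5.0 and 3.71% of genes passing. Rescaling the libraries by the median of ratios or by quantiles, with all 10 kept, gave 4 each, with 4.11 and 3.08% of genes, and the mean over transcripts gave 5, with 5.63%. The study's own criteria, a difference over 2-fold with an unadjusted p under 0.05 by its 2-sample equal-variance test, were met by 1 of 9 members, Tap1, against 1.04% of genes, and by 0 of 8 with the filter in each age group. The aged group lay wholly above the young group for 1 of 9 members, H2-K1, against 2.08% of genes, and below them for 0, against 0.344%. Paired by number, the exact permutation p was 0.0625 for H2-K1, H2-D1, B2m, Psmb8 and Psmb9, 0.125 for Tap2 and Tapbp and 0.25 for Psmb10. The blocked limma fit left 7 of 9 at an unadjusted p under 0.05, with 9.5% of genes passing. The aged mean was higher for 9 of 9, against 61.4% of genes.

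The median difference of the 9 tested members was 0.80 on the log2 scale, against 0.07 over all 10161 genes. It was 0.60 without aged 3, 0.64 without aged 4 and 0.62 without both libraries numbered 3. The 10161 genes included 0.63% with a difference at least as high as that of Psmb9, 2.7% as high as that of H2-K1 and 11.9% as high as that of Tapbp.

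**Figure D3:**
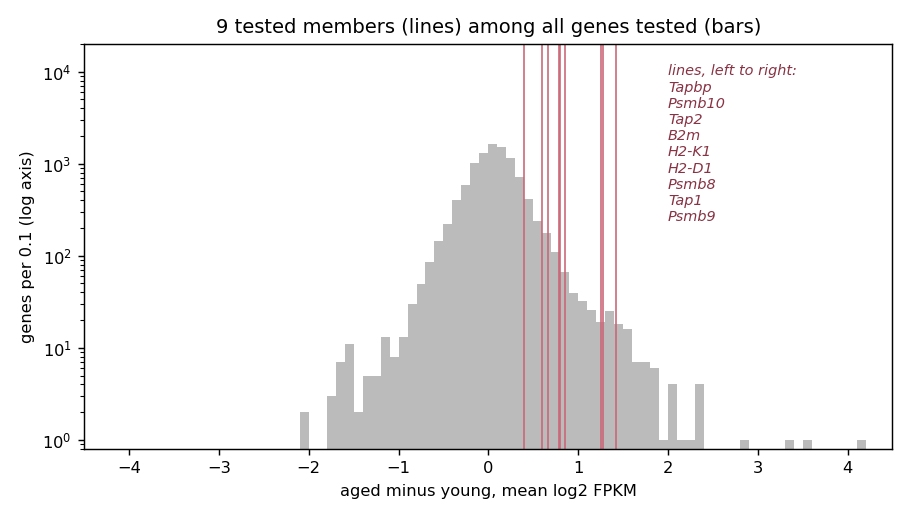
Number of genes (bars, log axis) by difference of mean log2 FPKM, aged minus young, in steps of 0.1 for the 10161 genes tested, with a line for each of the 9 tested members. The members lie between 0.40 (Tapbp) and 1.42 (Psmb9), right of the median of all genes at 0.07.

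The differences were uneven among the aged libraries. Relative to the young mean, the median over the 10 members was 0.54 in aged 1, 0.17 in aged 2, 1.77 in aged 3, 1.42 in aged 4 and 0.24 in aged 5 (log2). The same median over all genes was 0.09, 0.14, -0.23, 0.17 and 0.14. Above every young library stood 8 of 10 members in aged 1, 3 in aged 2, 10 in aged 3, 10 in aged 4 and 4 in aged 5. Over all genes that share was 22.8, 25.9, 29.4, 40.4 and 36.4%. In aged 2 the 3 of 10 members were thus near the share of all genes, and in aged 5 the 4 of 10 likewise. In aged 3 the members ranged from 0.23 to 3.68 above the young mean, and in aged 4 from 0.46 to 2.63. The 2 libraries did not order the members alike: Psmb8, Psmb9, Psmb10 and H2-D1 were higher in aged 3 and Tap2 and Tapbp in aged 4, while H2-K1, B2m, Tap1 and Nlrc5 were nearly level between them. This order depends on the row: the longest rows of Tap2 and Tapbp were higher in aged 3 and their short coding rows higher in aged 4. The coding H2-K1 row of 1570 bases was at 7.47 in aged 3 and 6.82 in aged 4, and a row of 871 bases at 6.30 and 7.16. Coding rows of Tap1 also went both ways.

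**Figure D4:**
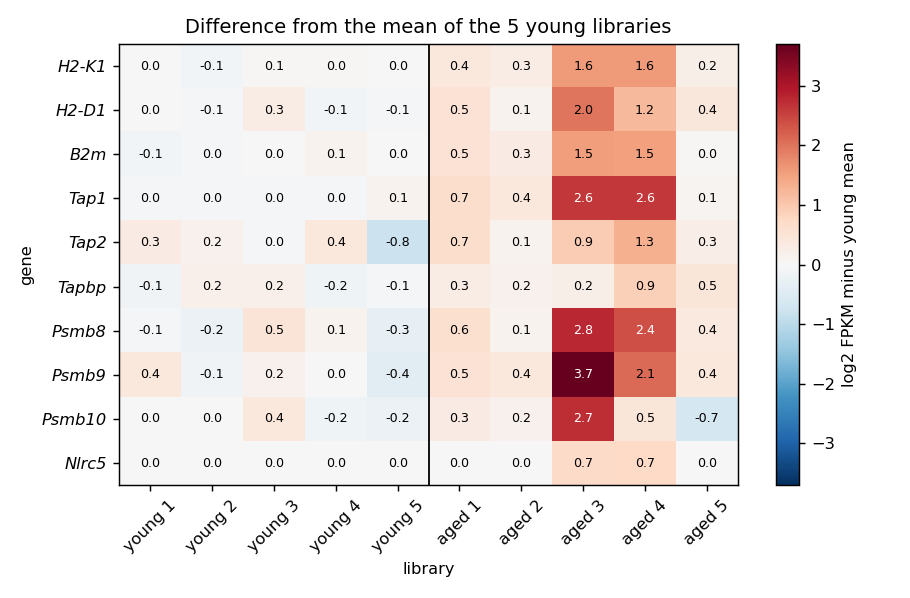
Log2 FPKM of each of the 10 genes (rows) in each library (columns) minus the mean of the 5 young libraries, as color and printed value, red for higher and blue for lower. Aged 3 and aged 4 are above the young mean for all 10 genes, and Psmb10 in aged 5 is below it, at -0.65.

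Other transcripts of the members are not independent of the rows used, since they share reads. All 10 rows of H2-K1 had a higher mean in aged, by 0.67 to 1.14, and all 4 of H2-D1, by 0.79 to 0.85. The coding H2-K1 row of 1570 bases listed 5.29, 5.18, 5.46, 5.30 and 5.21 in young and 5.74, 5.59, 7.47, 6.82 and 5.52 in aged libraries, also without overlap. The ratio of a row at the 3′ end of H2-K1 to a row at its 5′ end was 0.356 to 0.572 in young libraries, 2.13 in aged 3 and 0.416 to 0.479 in the other aged libraries. Coverage of H2-K1 in aged 3 thus leaned to the 3′ end, and its part in the level was not tested.

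Of 8 tested genes that trim peptides or help to load them, 7 had a higher mean in aged on the rows used and 1, Tapbpl, an unadjusted limma p under 0.05 (0.0227), with a median of 0.17. Tapbpl encodes TAPBPR, a relative of tapasin that edits the peptides bound to class I. It listed 0.95, 0.78, 0.71, 1.00 and 0.23 in young and 1.10, 1.01, 2.38, 1.98 and 1.14 in aged libraries, without overlap (difference 0.79, exact permutation p = 0.00794). The chaperones Calr, Canx and Pdia3 differed by 0.20, 0.05 and 0.30, and the aminopeptidase Erap1 by 0.14, with exact permutation p of 0.0714, 0.968, 0.262 and 0.683. Canx was at 1.64 in aged 3 against 4.75 to 5.31 in the other aged libraries. These rows of Calr, Canx and Pdia3 matched noncoding, retained-intron or nonsense-mediated-decay transcripts, and coding rows differed by 0.26, 0.43 and 0.61. The coding row of Canx was at 3.25 to 3.74 in young and at 3.32 in aged 3 against 3.92 to 4.37 in the other aged libraries. That of Pdia3 was at 3.30 to 3.66 in young and 3.86 to 4.52 in aged libraries, without overlap, and was chosen after its values were seen.

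Of 25 other class I genes, 22 were in the table, 7 were listed at 0 in all libraries and 11 were tested. Among these 9 had a higher mean and 2 an unadjusted limma p under 0.05, with a median of 0.69, and 2 of the 11, H2-M3 among them, passed the filter only through the aged libraries. Of the other 9, 7 had a higher mean and 1, H2-Q4, an unadjusted limma p under 0.05, with a median of 0.61. H2-Q4, a nonclassical class I gene of the Q region, listed 2.85, 2.44, 2.56, 2.89 and 2.71 in young and 3.20, 2.81, 4.32, 4.42 and 3.07 in aged libraries, and only aged 2 was within the young range. H2-M3, which presents formylated peptides, was at most 0.15 in young and stood at 0.20, 0.40, 0.96, 1.60 and 0.42 in aged libraries. Fcgrt, which encodes the neonatal Fc receptor and pairs with B2m without presenting peptides, differed by -0.08 and was the most abundant of this list. Reads of the H2-Q and H2-T genes may be shared with one another and with the classical heavy chains.

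Of 26 regulators of class I transcription, 24 were tested, 17 with a higher mean and 4 with an unadjusted limma p under 0.05, all higher, with a median of 0.28. Of the 24, 3 passed the filter only through the aged libraries, Irf7 and Socs1 among them. Of the other 21, 14 had a higher mean and 2 an unadjusted limma p under 0.05, with a median of 0.16. The regulators at that threshold in the whole list included Irf7 (difference 1.13), the interferon regulatory factor that amplifies type I interferon responses, Socs1 (1.77), an inhibitor of interferon signaling, and Stat3 (0.55), a factor that carries cytokine signals to the nucleus. Irf7 was listed at 0 in 4 young libraries and at 0.03 in young 3, and at 0.61, 0.75, 2.06, 2.26 and 0 in aged 1 to 5. On this row it was highest in aged 3 and aged 4, and aged 5 was level with the young libraries. The row, of 708 bases, matched a retained-intron transcript. Coding rows of Irf7 had 0 reads in every young library but differed in aged 5. Those of 1916 and 1764 bases had 44 and 42 reads there, and those of 2237 and 751 bases had 0. Jak1, a kinase of interferon receptors and the most abundant of this list, differed by -0.24. Rfxap, a subunit of the RFX complex that binds class I promoters, was the 1 regulator without overlap in the other direction, at 2.58 to 2.75 in young and 2.21 to 2.54 in aged libraries (difference -0.22, exact permutation p = 0.00794, unadjusted limma p = 0.116), and it was chosen after its values were seen.

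Of 36 interferon-induced genes listed, 35 were in the table, 3 were at 0 throughout and 19 were tested, and of these 7 passed the filter only through the aged libraries. Of the other 12, 12 had a higher mean in aged, 4 with an unadjusted limma p under 0.05 and a median of 1.08. Isg15, a ubiquitin-like protein induced by interferon, was one of the 7, listed at 0 in all young libraries and at 0.69, 0.95, 3.13, 2.52 and 0.59 in aged libraries. The chemokine Cxcl10 was another, at 0.64 in young 2 and 0 in the other young libraries. It stood at 0, 0.74, 0.72, 2.20 and 1.45 in aged 1 to 5, with aged 5 above aged 3 on this row. The row used, of 344 bases, matched a retained-intron transcript and had at most 42 reads. The coding row of 1094 bases was listed at 0 in all young libraries and in aged 1. It had 27, 153, 119 and 40 reads in aged 2 to 5, most in aged 3. Ifit3 and Ifitm3 differed by 1.08 and 0.74. The summed FPKM of the list was 67.2 to 80.0 in young libraries and 100, 87.4, 410, 320 and 81.1 in aged 1 to 5. Aged 3 and aged 4 were thus far above the others here as for the members, and aged 5 was close to the young libraries. No gene of these pathway lists passed the adjusted threshold.

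Leukocyte markers moved with the same libraries in part. Of 12 macrophage markers 11 were in the table and 8 were tested, and 8 had a higher mean in aged, 5 with an unadjusted limma p under 0.05, though 2 of the 8, Cd68 among them, passed the filter only through the aged libraries. Of the other 6, 6 had a higher mean and 4 an unadjusted limma p under 0.05. Their summed FPKM was 21.0 to 54.2 in young libraries and 55.1, 38.5, 147, 193 and 83.9 in aged 1 to 5, so that aged 4 was highest, aged 3 next and aged 2 within the young range. Ctss (cathepsin S), Cd68, Lyz2 (lysozyme) and C1qb differed by 2.36, 1.41, 1.22 and 1.56. The 6 general leukocyte markers summed to 0 to 37.1 in young and 5.36 to 50.4 in aged libraries, of which Coro1a made up most in young 1 to 3. Cd52 and Laptm5, which passed the filter only through the aged libraries, were at most 0.17 and 0.68 in young libraries and at 4.66 and 3.18 in aged 3, and the pan-leukocyte gene Ptprc was listed at 0 in all but aged 4, as was the macrophage marker Emr1. Of the 12 T or NK cell markers 8 were at 0 in all libraries, Cd3e, Cd4 and Cd8a among them, and 0 were tested, and their sum was 0 in all young libraries, 3.36 in aged 3, 2.72 in aged 4 and 0 in the others. The B or plasma cell markers summed to 60.2 to 105 in young and 291, 149, 115, 107 and 52.5 in aged 1 to 5, highest in aged 1 and so in another order than the members. Igkc, the immunoglobulin kappa constant region, also passed only through the aged libraries, at 0 to 1.29 in young and 3.15 to 6.78 in aged libraries. Endothelial markers summed to 51.5 to 60.8 in young and 57.7 to 69.8 in aged libraries. The 6 fibroblast markers had a median of -0.36, with 1, Col3a1, lower at an unadjusted limma p under 0.05 (difference -1.03), and summed to 167 to 278 in young and 129 to 281 in aged libraries, and the 5 adipocyte markers to 186 to 438 and 253 to 436. The part of leukocytes, or of any other cell type, in the members' differences was not tested.

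**Figure D5:**
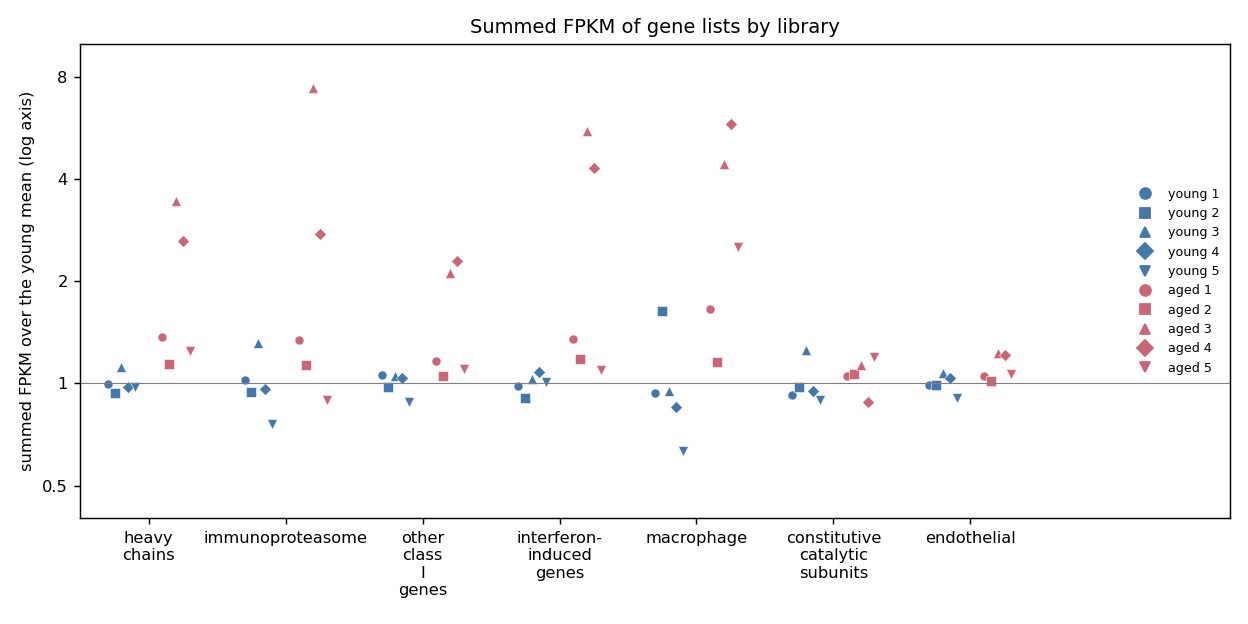
Summed FPKM of 7 gene lists (x axis) in each library divided by the mean of the 5 young libraries (y axis, log scale; the line marks the young mean), young in blue and aged in red, with marker shape giving the library number. Aged 3 and aged 4 lie highest for the heavy chains, immunoproteasome, other class I, interferon-induced and macrophage lists, and the constitutive catalytic subunits and endothelial markers stay near the line.

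Genes outside the lists whose pattern was most like that of the members were ranked by Pearson's r over the 10 libraries with the mean z-score of the 7 members above 0 in every library, among 8216 genes above 0 in every library. The 5 highest were H2-Eb1 (r = 0.977), Sdc3 (0.974), Clic1 (0.974), C2 (0.970) and H2-Aa (0.967). These values rest largely on aged 3 and aged 4, the libraries farthest from the median of the score, and without them r was 0.88, 0.88, 0.94, 0.83 and 0.80. H2-Eb1 and H2-Aa encode chains of MHC class II, which antigen-presenting cells use to show peptides to CD4+ T cells. H2-Eb1 listed 2.68, 3.40, 3.29, 2.85 and 2.66 in young and 3.98, 3.12, 6.53, 5.50 and 3.62 in aged libraries, with aged 2 alone inside the young range.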

How the data were processed

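The study sequenced mRNA of 5 young and 5 aged gastrocnemius samples. The authors aligned paired reads to mm10 with TopHat2 and deposited 1 table of log2 FPKM per transcript, in which an FPKM under 1 is listed as 0; the counting program is not given in the sources used here. The methods describe RefSeq genes, while the deposited rows are transcripts with Ensembl or Vega names. Groups were taken from the labels, which name no animals, and the methods give 5 muscles per age, which reads as 1 per mouse; p-values measure the spread between these samples. The gene symbol was the transcript name without its last 3 digits. limma (3.58.1, R 4.3.3) was fitted to the deposited log2 FPKM of transcripts whose mean FPKM reached 1 (values listed at 0 counted as 0), age only, with Benjamini-Hochberg adjustment. Single genes were tested by exact permutation of the 10 age labels (two-sided), for which 0.00794 is the smallest p, and these p are not adjusted. Read depth was found as the value that makes FPKM times length whole (within 0.1 read) for transcripts of GENCODE M21, the same assembly as mm10, so the reads behind a value are inferred. Rows of 1 gene share reads. The members and gene lists were chosen with earlier results of these data known. Besides the 10 members, the genes named were the constitutive counterparts, Psme1, Psme2, Calr, Canx, Pdia3 and Erap1, the most abundant gene of each list and up to 4 of each list by unadjusted p under 0.05, and the 5 nearest in pattern. Deviations from the group means correlated between libraries of the same number (0.131, 0.332, 0.695, 0.390 and 0.208, over transcripts) and averaged -0.038 between other numbers, so the replicate number was also fitted as a block. The fit was tested on simulated data first. Alternatives were the pseudocount, filter, transcript, scaling, moderation, block, libraries left out and, chosen after seeing the data, a filter in each age group. Promoter motifs were searched on both strands with Python 3.11.15. The result of 1 listed gene is not reported here.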

Additional observations from a re-analysis of the deposited data

Results flagged for a closer look

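Among the 52 genes named, a library far from the other 4 of its age group by Dixon's test was found 16 times in 104 groups, where chance gives about 1 in 20. Of the members, H2-D1 in young 3 (5.77 log2 FPKM) was above the other young libraries, and Tap1 in young 5 (0.18) was the 1 young value above 0. Young 3 was also the highest young library for Psmb5 (7.61), Psmb4 (7.68), H2-M3 (0.15), Irf7 (0.03) and Cd52 (0.17), and the lowest for Canx (3.29) and Erap1 (0.64). Aged 3 was the lowest aged library for Canx (1.64), Dcn (6.35) and Tnnt3 (14.48), and the highest for Egfl7 (5.36). Young 2 was highest for Cxcl10 (0.64) and Cd68 (0.29), and young 4 for Igkc (1.29). No member had an aged library set apart by this test. The test measures the gap next to the extreme library, so aged 3 and aged 4, both high for most members, could hide each other. Where the other libraries of a group were listed at 0, any value above 0 was set apart.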

How the results depend on the processing

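Under the 23 alternatives, the 204 differences of single members were all positive and 0 passed the adjusted threshold, with adjusted p from 0.297 to 1.0. The median difference of the members was 0.60 to 0.96. The replicate block (libraries paired by number) left 7 members at an unadjusted p under 0.05 and 1 past the 2-fold criteria with adjusted p from 0.562 to 0.719, and no member passed 0.05 in the paired exact test. With a mean FPKM of at least 1 in each age group, chosen after seeing the data, 7 of 8 members had an unadjusted p under 0.05 and 0 passed the 2-fold criteria. The 8 members at an unadjusted p under 0.05 became 5 with the mean over transcripts, 4 after rescaling by the median of ratios, 4 after quantile normalization and 3 without both libraries numbered 3. Leaving out 1 library gave 0 (without aged 4) to 8, with 5 without aged 3, young 2 or young 4 and 4 without young 5. The 1 member past the 2-fold criteria, Tap1, became 0 with either pseudocount (1 or 0.1), with transcripts above 0 in all libraries only, with the mean over transcripts, under both rescalings and without both libraries numbered 3. Leaving out 1 library gave 0 to 4, with 4 without aged 2, 3 without aged 5, and 0 without any of the 5 young libraries, aged 3 or aged 4. The 1 member without overlap became 2 with the second transcript, 2 with the mean over transcripts and 3 without both libraries numbered 3, and 1 to 4 when 1 library was left out (2 without young 1, young 4 or young 5, 3 without young 3 or aged 5, 4 without aged 2). Tap1 is left out of the exact permutation p that follow, since it passed the filter only through the aged libraries. The exact permutation p was above 0.05 after quantile normalization for B2m (0.0635), Psmb8 and Psmb9 (0.103) and Tapbp (0.0556). It was also above 0.05 after rescaling by the median of ratios for B2m and Psmb8 (0.0556), and with the second transcript for Psmb9 (0.0714) and Tapbp (0.389). Without both libraries numbered 3 this held for B2m, Psmb9 and Tapbp (0.0571). Without single young libraries it held for B2m (0.0635), Psmb8 (0.0556 to 0.119), Psmb9 (0.0635 to 0.103) and Tapbp (0.0556). Fewer libraries make separation of the groups easier. The share of all genes was not counted for the 2-fold and overlap counts under these alternatives, so those counts have no comparison. The other causes were not tested. The median of ratios placed the libraries from -0.224 (aged 3) to 0.11 (aged 2) on the log2 scale. Reads were few for the rows used of Tap1, Tap2 and Psmb9 in young muscle, at most 69 a library. The coding Tap2 row of 3442 bases had 121 to 356 reads there. Values under an FPKM of 1 were not resolved.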
